A study of Rattus norvegicus with 48 samples.

Results

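The genes described here are 25 line marker genes of rat hindlimb muscle, whose RNA levels in rats without a cast differed in 1 direction between low responders to training (LRT) and high responders to training (HRT) in both plantaris and soleus. They were chosen from 31998 deposited genes by their values in the 24 control libraries. Of these genes, 13476 had a mean level in CTRL of at least 1 CPM, which is the count divided by the library total and multiplied by 1000000. The line difference was the mean log2(CPM + 0.5) of LRT CTRL minus that of HRT CTRL, and it reached 1 or -1 in plantaris for 55 genes and in soleus for 113 genes. After a limit on the difference in level between the muscles, 12 genes were higher in LRT and 13 were higher in HRT in both muscles. The line difference in CTRL, and anything that shares the CTRL libraries with it within 1 line, is therefore given as a description with no test.

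Plantaris and soleus RNA was sequenced from 24 female rats of generation 19, aged 14 months, 12 from each line. The lines were selectively bred in opposite directions from genetically heterogeneous rats, with rotational mating to slow inbreeding, on the gain in running capacity after treadmill training, which the rats of each generation did when young. Immobilization of a single hindlimb in a cast over 3 d (HI) was applied to 6 rats per line, and another 6 per line had no cast (CTRL), which gave 48 libraries in 8 groups of 6. Puromycin was injected shortly before the muscles were taken, as a label of new protein that the study read in CTRL and HI muscle.

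As background, lines bred in opposite directions come to differ at the loci behind the trait and, by drift and linkage, at other loci, and an outbred line keeps variation among its animals. Ribosomal protein genes, haemoglobin genes and the class I genes of the rat major histocompatibility complex (RT1) belong to families with near-identical copies. Their counts are uncertain, because reads can be split among the copies.

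Of the 25 genes 5 carry a symbol in the sources used here: LOC100362027 (ENSRNOG00000005975), Pik3ap1 (ENSRNOG00000013309), Hba-a3 (ENSRNOG00000045989), RT1-CE16 (ENSRNOG00000059770) and Cfap69 (ENSRNOG00000006114). The other 20 are given by identifier or by count. Symbols come from the differential expression tables of the study, which list 1149 genes that changed with HI somewhere, so the 5 symbols are not a fair sample of the 25 genes with regard to HI. Among the 1149 symbols are 5 haemoglobin genes, 3 RT1 genes and 8 genes named for a ribosomal protein, and the members hold 1 of each. In the RefSeq table of the rat genome (GRCr8), which matched 4 of the 5 symbols, these 4 lie on 4 chromosomes. Hba-a3 has the protein-coding genes Hba-a2 and Hbq1b on 1 side and Fam234a and Luc7l on the other. RT1-CE16 has RT1-CE15 and RT1-CE12 on 1 side and Tcf19 and Pou5f1 on the other.

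Library totals were between 26.8 and 36.4 M estimated counts (M, mega), and RNA integrity numbers (RIN) were between 7.8 and 8.6. At the median total, 3 counts correspond to 0.099 CPM, and levels at or under this value are read as not detectable at this depth. The tissue labels could not be checked against muscle fibre markers, since 0 of the 8 listed have a paired identifier, and the same holds for the leukocyte, adipocyte, endothelium, Schwann cell and satellite cell lists. All 5 blood markers and 2 of 5 fibroblast markers could be read. Of the latter, Col1a1, a chain of type I collagen, had plantaris medians of 94.8 CPM in LRT and 217.2 in HRT without a cast and 48.2 and 91.8 with it, and soleus medians of 68.0 and 131.6, and 42.1 and 67.3, with overlapping ranges. Col3a1 had medians of 314.3 and 311.0 in plantaris and 344.5 and 427.5 in soleus without a cast, and 138.4 and 172.4, and 207.8 and 388.6, with it. The part of these cells in the line differences of the members was not tested. In bulk tissue, fewer cells of a type and less RNA per cell cannot be told apart.

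Replicate numbers were read as naming the same rat in both muscles, and the libraries were compared by their deviations from the group mean over 16960 tested genes. In both LRT groups and in HRT HI all 6 plantaris libraries and all 6 soleus libraries correlated best with the library of their own number. In HRT CTRL only 3 plantaris and 4 soleus libraries did so. Plantaris 1 of HRT CTRL had r = 0.30 with soleus 2 and r = -0.07 with soleus 1. Plantaris 2 had r = 0.01 with soleus 1 and r = -0.01 with soleus 2 over all tested genes, and r = 0.60 and -0.14 over the 31 genes that spanned at least 8-fold between the HRT CTRL rats in both muscles. Over all tested genes soleus 1 correlated best with plantaris 4, at r = 0.14, and plantaris 4 had r = 0.10 with its own number. The match of plantaris 1 with soleus 2 thus goes against the numbers, and the match of plantaris 2 with soleus 1 rests on the genes of wide span. Which libraries come from 1 rat was not settled for HRT CTRL. An exchange of numbers among the HRT CTRL libraries of 1 muscle would leave the group comparisons as they are. An exchange between groups was not looked for, and the line, muscle and treatment of each library were taken from the labels. Correlations between the muscles of a rat are given as numbered and with numbers 1 and 2 of HRT CTRL exchanged, and single levels as numbered.

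**Figure D1:**
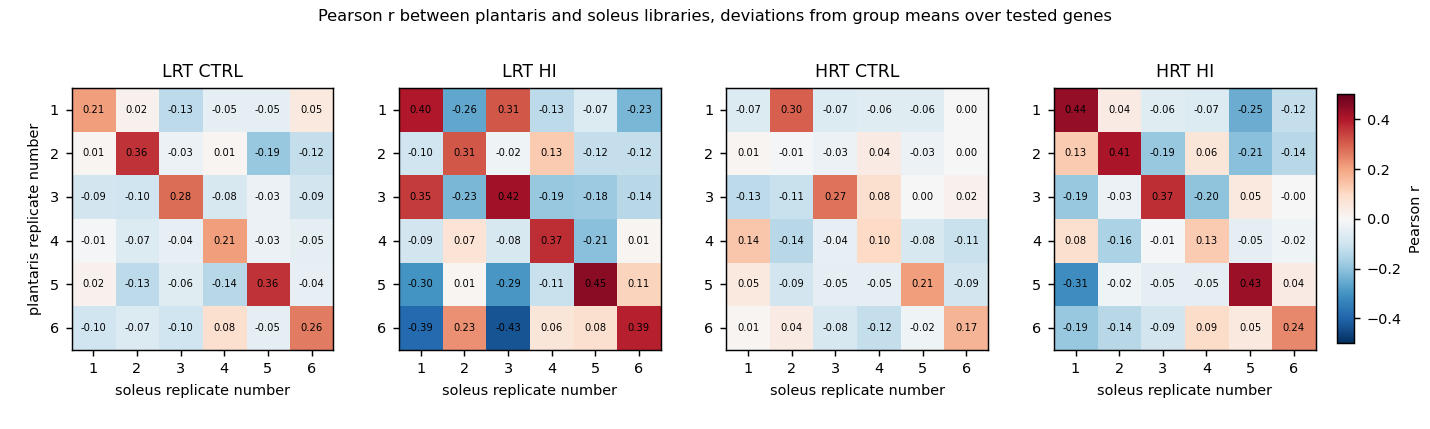
Pearson r between each plantaris library (rows) and each soleus library (columns) of the same line and treatment, from deviations of log2 levels from the group means over 16960 genes, with 1 panel for each set of 6 rats. The diagonal, where the replicate numbers are the same, holds the highest value of each row and column except in HRT CTRL, where plantaris 1 and soleus 2 share r = 0.30.

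The size of the line difference in CTRL ranged widely over the 25 genes. Among the genes higher in LRT its median was 1.38 in plantaris and 1.44 in soleus, with the smallest at 1.02 and 1.04 and the largest at 3.76 and 3.50. Among the genes higher in HRT the median was -1.42 in plantaris and -1.32 in soleus, and LOC100362027 stood far beyond the rest at -5.17 and -5.09. Nearest inside the threshold were ENSRNOG00000033346 at 1.02 and 1.10 and Cfap69 at -1.01 and -1.24. Nearest outside were ENSRNOG00000046163, at 1.28 in plantaris and 0.985 in soleus, and ENSRNOG00000054174, at -0.9996 and -1.19.

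The HI rats were not used to choose the genes, and they give the same line comparison in other animals. In LRT HI against HRT HI, 19 of the 25 genes kept the sign of the CTRL difference in both muscles and 3 had the opposite sign in both. The median line difference of the genes higher in LRT was 0.856 in plantaris and 1.02 in soleus, and that of the genes higher in HRT was -0.616 and -0.851, against medians of -0.013 and -0.045 over all tested genes. The difference was at least 1 in size, with the sign kept, in both muscles for 9 genes. Taken in the CTRL direction, the line difference was smaller in HI than in CTRL in both muscles for 19 genes. A turned sign counted as smaller, also where the size was greater, as for ENSRNOG00000061438 in soleus, at 1.21 and -1.38. Choosing genes by their CTRL values favours this direction.

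**Figure D2:**
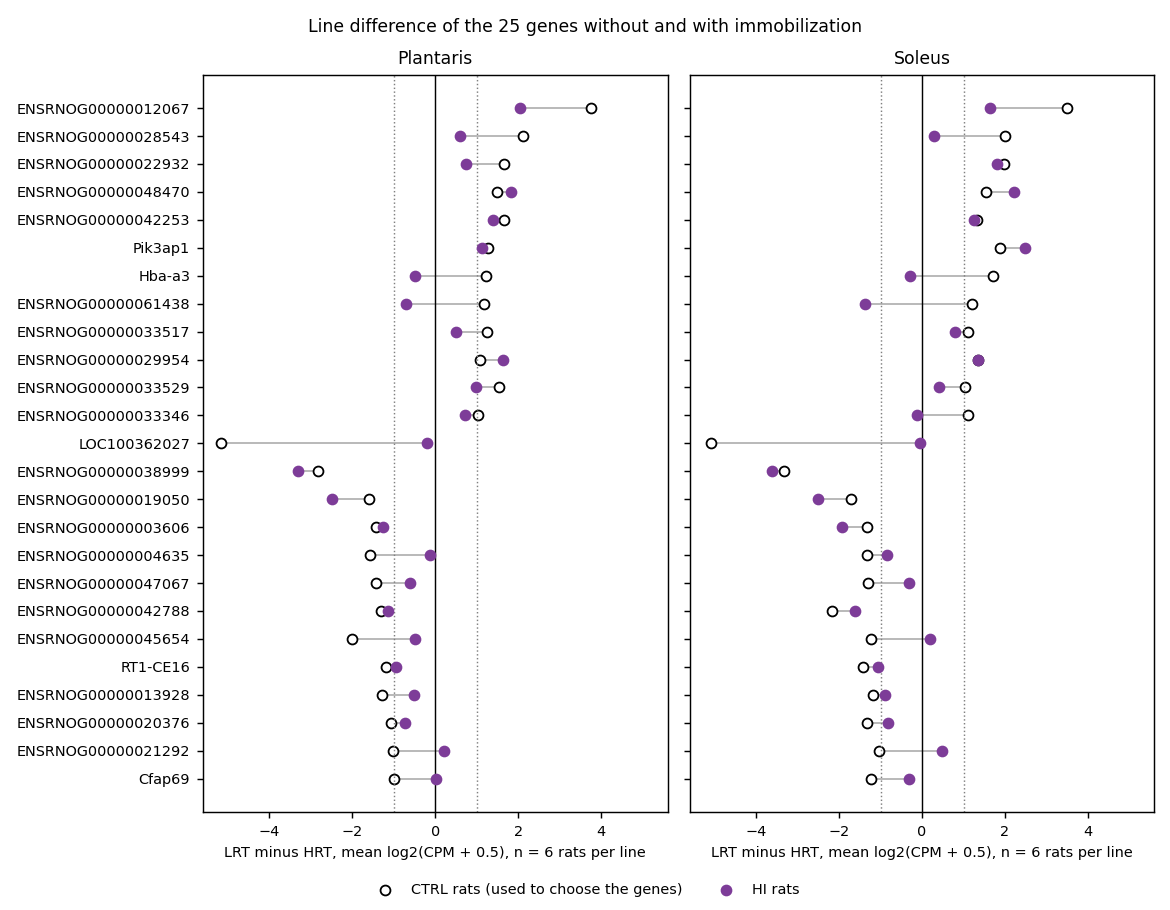
Line difference of the 25 genes, LRT minus HRT in mean log2(CPM + 0.5), in plantaris and soleus. Open circles are CTRL rats, whose values chose the genes, and filled circles are HI rats (6 rats per line in each), with dotted lines at 1 and -1. The filled circles lie on the same side of 0 as the open ones in both panels for 19 genes.

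In edgeR's quasi-likelihood test over all genes, 2 of the 12 genes higher in LRT were higher in LRT HI than in HRT HI in plantaris at a threshold of 0.05 on the adjusted p, where 1.64% of all tested genes were called in that direction. Of the 13 genes higher in HRT, 2 were higher in HRT HI in plantaris, where 0.778% of all genes were called. In soleus the counts were 3 of 12 for the genes higher in LRT, beside 6.60% of all genes, and 5 of 13 for the genes higher in HRT, beside 5.64%. In neither muscle was a gene called against its CTRL direction. Called in both muscles were 2 of 12 genes higher in LRT and 2 of 13 higher in HRT, beside 0.637% and 0.230% of all genes. Called in at least 1 muscle were 3 of 12 and 5 of 13, beside 7.61% and 6.19%. ENSRNOG00000042253, ENSRNOG00000029954, ENSRNOG00000042788, ENSRNOG00000013928 and ENSRNOG00000020376 are named below because they were called, and so were chosen after their values were seen, as were ENSRNOG00000033517, ENSRNOG00000047067, ENSRNOG00000048470 and ENSRNOG00000045654.

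ENSRNOG00000042253 was the only member, 1 of 12 higher in LRT and 0 of 13 higher in HRT, whose lines did not overlap in any of the 4 comparisons, beside 0.0118% and 0.0177% of all genes. The 2 CTRL comparisons among them chose the gene. In plantaris its levels in LRT CTRL were between 9.54 and 11.2 CPM with a median of 10.7, and in HRT CTRL between 2.55 and 3.52 with a median of 3.06. In LRT HI plantaris they were between 9.88 and 13.6 CPM (median 12.3), and in HRT HI between 3.18 and 5.08 (median 4.59). The rats of a line lay close together, and every LRT rat was above every HRT rat. Soleus showed the same separation, with 8.21 to 11.1 CPM in LRT against 2.82 to 5.27 in HRT without a cast, and 9.29 to 13.1 against 3.59 to 4.93 with it. The edgeR log2 fold change of LRT HI against HRT HI was 1.5 (SE 0.11, adjusted p = 7.8e-13) in plantaris and 1.36 (SE 0.11, adjusted p = 2.2e-11) in soleus. Across the 24 rats its deviations from the group means in plantaris and soleus had r = -0.30, so that within a line the 2 muscles of a rat did not deviate together.

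ENSRNOG00000029954 was also higher in LRT. In CTRL the lines overlapped, with 37.9 to 169.3 CPM in LRT plantaris against 35.3 to 46.6 in HRT, because LRT replicate 1, at 37.9 in plantaris and 29.7 in soleus, lay within the HRT range. In HI they did not overlap in either muscle. LRT HI plantaris had between 61.3 and 158.3 CPM (median 89.4) and HRT HI between 23.9 and 41.2 (median 25.7), while in soleus the ranges were 64.9 to 124.2 (median 101.3) and 26.97 to 47.0 (median 36.7). The log2 fold change was 1.74 (SE 0.30, adjusted p = 6.6e-04) in plantaris and 1.44 (SE 0.30, adjusted p = 0.0013) in soleus by edgeR. Levels of all 6 rats of 1 line were beyond all 6 of the other, in the direction of CTRL, for 2 of 12 genes higher in LRT in HI plantaris (0.242% of all genes) and 1 of 13 higher in HRT (0.519%), and for 3 of 12 (0.649%) and 0 of 13 (1.54%) in HI soleus. In CTRL, which chose the genes, the counts were 2 of 12 (0.631%) and 4 of 13 (2.16%) in plantaris, 1 of 12 (0.336%) and 4 of 13 (2.13%) in soleus, and 1 of 12 (0.0531%) and 3 of 13 (0.236%) in both. ENSRNOG00000042253 and ENSRNOG00000029954 were the only members without overlap between the HI groups in both muscles, a pattern that 0.0767% of all tested genes showed in the direction of LRT. In the direction of HRT 0 of 13 members showed it, beside 0.0649% of all genes.

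ENSRNOG00000038999 was higher in HRT by 2.84 in plantaris and 3.33 in soleus on the log2 scale in CTRL. Its 6 LRT CTRL rats lay between 3.53 and 7.20 CPM in plantaris and between 4.39 and 8.37 in soleus. Of the HRT CTRL rats 5 lay between 44.2 and 67.5 CPM in plantaris and between 51.4 and 112.4 in soleus, and replicate 3 was low in both muscles, at 9.69 and 12.9. In LRT HI the pattern was turned around for 1 rat, replicate 3, which had 56.8 and 57.8 CPM while the other 5 had 2.53 to 7.06 in plantaris and 1.72 to 7.62 in soleus. All 6 HRT HI rats were high, at 44.8 to 113.8 CPM in plantaris and 53.2 to 97.6 in soleus. The lines thus overlapped in HI through that 1 LRT rat alone. The edgeR log2 fold change was -2.46 (SE 0.64, adjusted p = 0.029) in plantaris and -2.60 (SE 0.64, adjusted p = 0.0057) in soleus. The plantaris call was lost when HRT HI replicate 2, 5 or 6 or LRT HI replicate 1 was left out, with adjusted p values of 0.058, 0.053, 0.064 and 0.087.

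ENSRNOG00000019050 was under 1 CPM in every LRT library and at separate levels in HRT rats. In LRT its highest level was 0.690 CPM in plantaris (CTRL replicate 1) and 0.470 in soleus (HI replicate 3). In HRT CTRL plantaris 3 rats had 5.52, 7.13 and 12.5 CPM and 3 had 0.630 to 0.680, and in soleus 3 had 4.73, 6.91 and 11.6 and 3 had 0.190 to 0.360. HRT HI replicate 5 was low in both muscles, at 0.630 and 0.380 CPM, yet in plantaris still above every LRT HI rat, and the other 5 lay between 3.88 and 15.3 in plantaris and between 4.43 and 9.53 in soleus. Every HRT rat that was high in 1 muscle was high in the other, except replicates 1 and 2 of HRT CTRL, which had 0.680 and 12.5 CPM in plantaris but 11.6 and 0.360 in soleus. Its log2 fold change of LRT HI against HRT HI was -3.82 (SE 0.79, adjusted p = 0.0058) in plantaris and -4.02 (SE 0.80, adjusted p = 9.1e-04) in soleus by edgeR.

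In soleus 3 more of the genes higher in HRT were called by edgeR. ENSRNOG00000042788 had 1.83 to 12.04 CPM in LRT HI soleus (median 3.37) and 8.03 to 20.4 in HRT HI (median 14.5), a log2 fold change of -1.51 (SE 0.42, adjusted p = 0.014). The lines overlapped through LRT HI replicate 5, at 12.04 CPM. In plantaris ENSRNOG00000042788 had -1.28 (SE 0.47, adjusted p = 0.13 by edgeR). It was called there with limma-voom (-1.62, adjusted p = 0.02) and by edgeR without LRT HI replicate 5 (-2.05, adjusted p = 0.004). ENSRNOG00000020376 had 10.2 to 21.2 CPM in LRT HI soleus (median 11.6) and 16.8 to 29.1 in HRT HI (median 22.6), with a log2 fold change of -0.76 (SE 0.23, adjusted p = 0.021). Here LRT HI replicate 6, at 21.2 CPM, was the rat within the HRT range, and the call was lost without HRT HI replicate 5 or LRT HI replicate 3, 4 or 5, at adjusted p values of 0.06, 0.059, 0.058 and 0.051. In plantaris ENSRNOG00000020376 had -0.69 (SE 0.23, adjusted p = 0.093 by edgeR). It was called there with limma-voom (adjusted p = 0.041) and the replicate block (0.044). That block ties together the rats of the same number in all groups, which are different animals, so it is given here and below only as an alternative fit. By edgeR it was also called without HRT HI replicate 4 (0.03), LRT CTRL replicate 5 (0.049) or LRT HI replicate 6 (0.004). ENSRNOG00000013928 had medians of 6.95 CPM in LRT HI and 14.9 in HRT HI, and its log2 fold change of -0.81 (SE 0.27) was only just called at an adjusted p of 0.044. That call was lost in 13 of the 24 fits that left out 1 rat, with adjusted p values up to 0.12 without LRT HI replicate 4, and also with the replicate block (0.057), with genes of any count (0.064) and with soleus fitted alone (0.12).

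**Figure D3:**
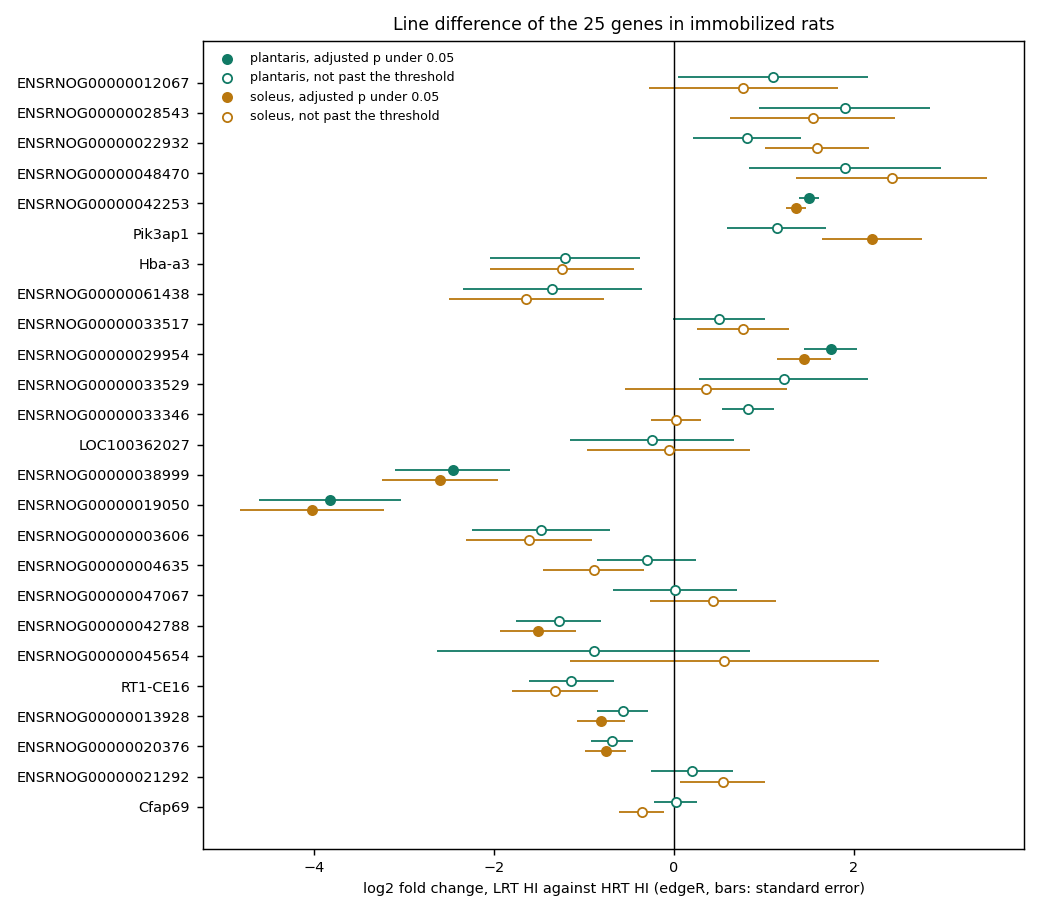
edgeR log2 fold change of LRT HI against HRT HI for the 25 genes, with bars of 1 standard error, in plantaris (green) and soleus (orange). Filled points passed the threshold of 0.05 on the adjusted p: 4 in plantaris and 8 in soleus, the 4 plantaris genes among them.

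Pik3ap1, an adaptor that links surface receptors of B cells and myeloid cells to phosphoinositide 3-kinase, was the third LRT gene called in soleus. In soleus its levels in LRT HI were between 22.9 and 42.3 CPM (median 36.3) and in HRT HI between 2.46 and 20.6 (median 3.49), with no overlap. The log2 fold change was 2.20 (SE 0.56, adjusted p = 0.0073 by edgeR). In plantaris the HI groups overlapped, at 4.88 to 34.9 CPM in LRT (median 17.5) and 2.09 to 17.2 in HRT (median 4.80), and the log2 fold change of 1.14 (SE 0.55) was not called (adjusted p = 0.26). HRT HI replicates 2 and 3 were the high HRT rats in both muscles, with 17.2 and 15.9 CPM in plantaris and 20.6 and 12.1 in soleus. In HRT CTRL it was replicates 1 and 2 that were low in both, at 5.39 and 8.52 CPM in plantaris and 3.76 and 3.08 in soleus, beside 25.3 to 38.1 and 11.4 to 26.4 in the other 4. The difference between the muscles in the line difference of Pik3ap1 in HI was -1.06 (SE 0.76, unadjusted p = 0.17, adjusted p = 0.67 by edgeR). For Cfap69 this difference was 0.37 (SE 0.35, adjusted p = 0.76). This fit treats the 2 muscles of a rat as independent, although in HI rats their r was 0.78 for both genes. The SE and p of these 2 differences therefore do not measure the spread of a difference within a rat.

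The line difference in HI differed between the muscles for 0 of the 25 genes by edgeR, beside 0.00590% of all tested genes. At an unadjusted p under 0.05 the count was also 0, and DESeq2, limma-voom and a fit with the rat as a replicate block each called 0.

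LOC100362027, a provisional locus annotated as resembling ribosomal protein L30 of the large ribosomal subunit, had the greatest CTRL difference and lost it in the HI rats. In LRT CTRL 5 of the 6 rats were at 0 CPM in plantaris, and 4 of these 5 were at 0 and 1 at 0.09 in soleus. The remaining rat, replicate 5, had 30.6 CPM in plantaris and 32.1 in soleus. All 12 HRT CTRL libraries were between 27.2 and 56.6 CPM, so replicate 5 of LRT CTRL stood among them. In LRT HI no rat was at 0: the 6 levels were between 25.9 and 44.5 CPM in plantaris (median 34.7) and between 31.5 and 38.8 in soleus (median 34.6). HRT HI rats had 29.2 to 63.5 CPM in plantaris and 26.1 to 57.4 in soleus. The edgeR log2 fold change of LRT HI against HRT HI was -0.24 (SE 0.91, adjusted p = 0.92) in plantaris and -0.06 (SE 0.91, adjusted p = 0.98) in soleus. HI and CTRL rats are different animals, so whether the levels at or near 0 in 5 LRT CTRL rats go with the missing cast or with those rats cannot be told apart. Averaged over the lines, HI against CTRL gave a log2 fold change of 1.27 (SE 0.67, adjusted p = 0.14) in plantaris and 1.32 (SE 0.68, adjusted p = 0.14) in soleus by edgeR. HI minus CTRL in mean log2(CPM + 0.5) was 5.16 and 5.09 in LRT but 0.184 and 0.048 in HRT, so this average rests on the LRT CTRL levels that chose the gene and is a description. Its size turned on 1 rat and on the tool. Without LRT CTRL replicate 5 the edgeR value was 6.55 in plantaris and 5.20 in soleus, limma-voom with all rats gave 4.51 and 4.37, and the replicate block gave 2.30 and 2.29. Each of these fits put the gene past the threshold, and they rest on the same LRT CTRL levels.

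ENSRNOG00000012067 had the greatest CTRL difference among the genes higher in LRT, at 3.76 in plantaris and 3.50 in soleus. Unlike LOC100362027 it kept a difference in mean log2(CPM + 0.5) in the HI rats, of 2.03 and 1.64. All 24 LRT libraries, CTRL and HI, lay between 19.4 and 85.2 CPM. HRT rats were at 1 of 2 levels. In HRT CTRL 4 of 6 rats were under 1 CPM in each muscle, and 2 of 6 were high, at 85.1 and 38.6 CPM in plantaris and 128.9 and 39.3 in soleus. In HRT HI replicates 1 and 2 were low, at 0.560 and 0.360 CPM in plantaris and 0.920 and 0.750 in soleus, and the other 4 had 20.7 to 41.7 and 28.8 to 36.3. With 4 of 6 HRT rats high in HI in place of 2 of 6 in CTRL, the edgeR log2 fold change in HI was 1.10 (SE 1.06, adjusted p = 0.62) in plantaris and 0.77 (SE 1.05, adjusted p = 0.70) in soleus. The rats were at the same level in both muscles except replicates 1 and 2 of HRT CTRL, which had 85.1 and 0.480 CPM in plantaris and 0.450 and 128.9 in soleus. With these 2 numbers exchanged the r between the muscles, from deviations from group means over 24 rats, went from 0.45 to 0.99.

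ENSRNOG00000028543 was detected in every library but high in only some LRT rats. In LRT CTRL replicates 2, 3 and 4 had 9.45 to 11.9 CPM in plantaris and 13.95 to 17.1 in soleus, and replicates 1, 5 and 6 had 0.580 to 1.18 and 0.750 to 0.950. In LRT HI replicate 4 alone was high, at 13.1 and 15.8 CPM, and the other 5 were at or under 1.37. No HRT library was above 2.69 CPM. The edgeR log2 fold change of LRT HI against HRT HI was 1.90 (SE 0.95, adjusted p = 0.28) in plantaris and 1.54 (SE 0.92, adjusted p = 0.29) in soleus. Both values hung on replicate 4 of LRT HI, without which they were 0.14 (adjusted p = 0.95) and -0.61 (adjusted p = 0.69).

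**Figure D4:**
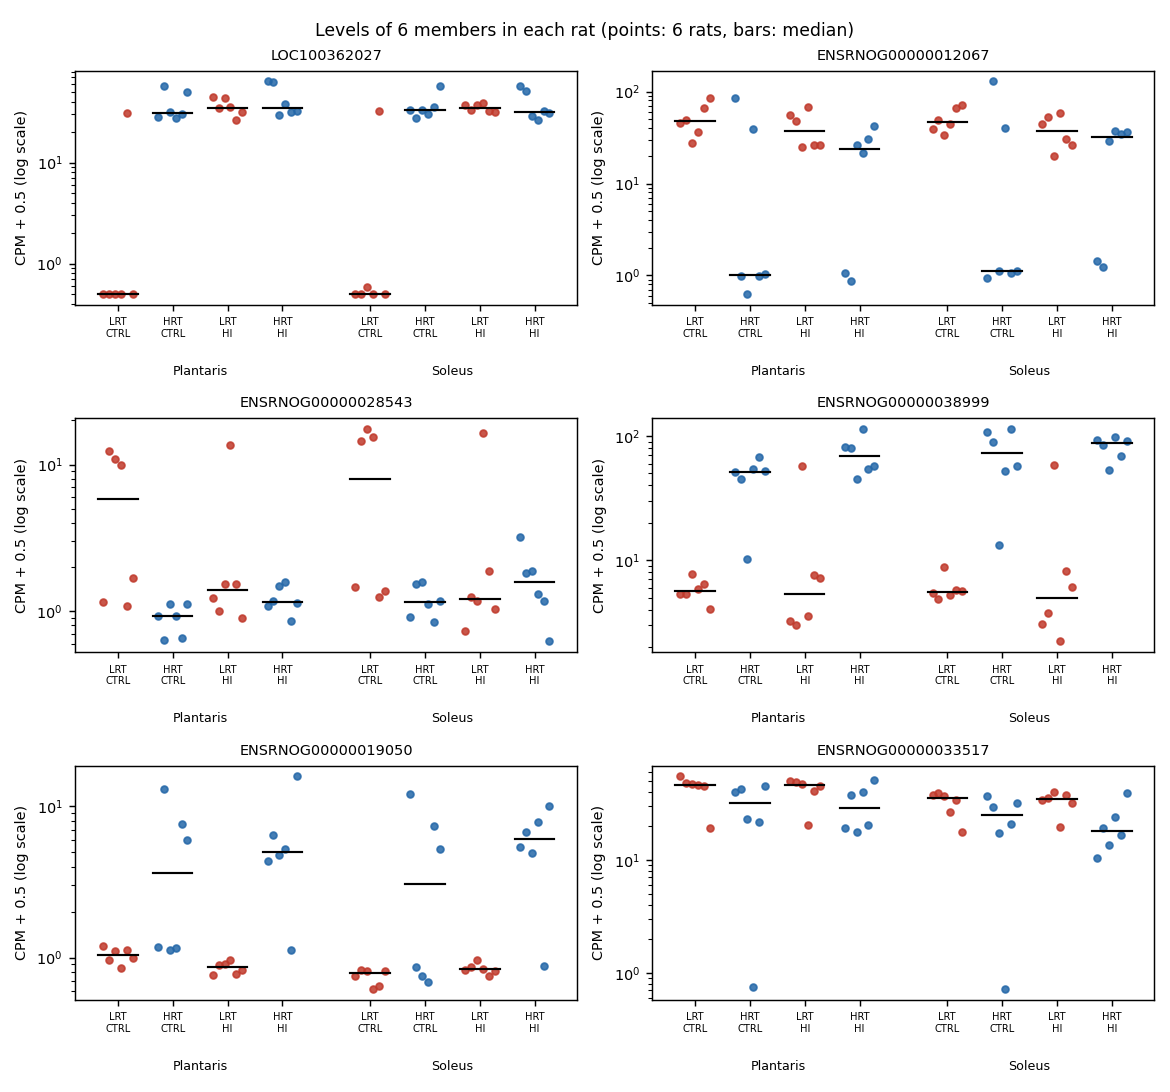
CPM + 0.5 on a log scale of 6 members in each of the 48 libraries, with LRT rats in red, HRT rats in blue and a bar at the median of each group of 6. LOC100362027 is at or near 0 in 5 of 6 LRT CTRL rats in both muscles and high in every other library, and the other panels show rats of 1 line at separate levels. The rats at the middle level of ENSRNOG00000033517 in plantaris lie under those at the high level in soleus within each group, but not across groups.

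Levels of this kind, apart by a large factor between rats of 1 group, were common among the members. A span of at least 8-fold in CPM + 0.5 between the 6 rats of a group, in both muscles, was found in at least 1 of the 4 rat groups for 16 of the 25 genes, 8 in each direction. Of all 13476 genes at or above the CPM floor, 87 (0.646%) showed it. The 8-fold limit was chosen after the values were seen, and a few rats at another level in CTRL also help a gene to be chosen. In the HI rats alone, which did not choose the genes, it was found for 7 of 25 members and for 65 genes (0.482%) in all. These members were spread over the groups, with 3 in LRT HI and 4 in HRT HI.

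The 2 muscles of a rat mostly deviated together in these genes. Over 24 rats, the r between plantaris and soleus deviations from the group means had a median of 0.75 over the members, with a range of -0.30 to 0.98, beside 0.33 over the 13476 genes. With numbers 1 and 2 of HRT CTRL exchanged, the medians were 0.85 and 0.34, and the members ranged from -0.22 to 0.99. In the 12 HI rats alone they were 0.78 and 0.48. An r of at least 0.8 was reached by 12 members over all rats as numbered and by 2.38% of genes, by 14 members and 2.69% of genes with the exchange, and in HI rats by 11 members and 11.5% of genes. Both libraries of a rat share its genotype and its day of collection, and these correlations are given as a description. ENSRNOG00000042253, ENSRNOG00000004635 and ENSRNOG00000045654 were at the low end, with r of -0.30, -0.22 and 0.02 as numbered and -0.14, -0.22 and -0.07 with the exchange.

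ENSRNOG00000033517 showed 3 levels in plantaris, and within each group the rats of a lower level were also the lower ones in soleus. HRT CTRL replicate 4 had 0.25 CPM in plantaris and 0.22 in soleus. In plantaris 7 rats had 17.2 to 22.4 CPM, and the other 16 had 37.3 to 54.5. LRT held 2 of those 7 rats, CTRL replicate 6 at 18.8 and HI replicate 4 at 19.7, and HRT held 5. The same 2 LRT rats were the lowest of their groups in soleus, at 17.03 and 19.2 CPM. The HRT rats among the 7 were HI replicates 1, 3 and 5, at 9.87 to 16.1 CPM in soleus beside 18.8 to 38.6 in the other HRT HI rats, and CTRL replicates 3 and 5, at 16.7 and 20.1 beside 29.1 to 36.1 in replicates 1, 2 and 6. Across groups the soleus levels ran from 9.87 to 39.4 CPM without a clear gap, apart from HRT CTRL replicate 4. HRT HI replicate 2, at 37.3 CPM in plantaris, had 18.8 in soleus, under the 20.1 of HRT CTRL replicate 5, which had 20.95 in plantaris. The r of ENSRNOG00000033517 between the muscles was 0.98 over all rats and 0.90 in HI rats. The line difference of this gene in HI was 0.50 (SE 0.51, adjusted p = 0.64 by edgeR) in plantaris and 0.77 (SE 0.51, adjusted p = 0.35) in soleus.

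ENSRNOG00000047067 was at or under the floor in 1 rat of each LRT group in both muscles: LRT CTRL replicate 3, at 0.09 CPM in plantaris and 0 in soleus, and LRT HI replicate 5, at 0 and 0.09. The other 22 rats had at least 14.08 CPM in plantaris and at least 11.95 in soleus. ENSRNOG00000048470 was between 1.42 and 4.29 CPM in all 12 LRT HI libraries, and in HRT HI it was at 4.01 and 3.93 in replicate 3 and at or under 0.320 in the rest. Its log2 fold change in HI was 1.90 (SE 1.07, adjusted p = 0.34) in plantaris and 2.42 (SE 1.06, adjusted p = 0.13) in soleus by edgeR. Without HRT HI replicate 3 it was 4.3 in soleus (adjusted p = 0.011), the replicate block gave 3.04 (adjusted p = 0.048), and limma-voom gave 4.41 in plantaris (adjusted p = 0.025) and 3.52 in soleus (adjusted p = 0.031). ENSRNOG00000045654 is a member in soleus through 1 library: HRT CTRL replicate 1 had 78.7 CPM, and the other 5 HRT CTRL and all 6 LRT CTRL soleus libraries were at 0. No fold is given for it.

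Cfap69, a cilia and flagella associated protein required for sperm tail formation, lost its line difference in HI. In plantaris CTRL the lines did not overlap, with 0.600 to 1.53 CPM in LRT (median 1.12) and 2.08 to 2.93 in HRT (median 2.67). In soleus CTRL they did not overlap either, at 0.670 to 1.97 (median 0.820) and 2.87 to 3.64 (median 3.07). In HI they overlapped, at 2.10 to 5.13 CPM in LRT (median 3.42) and 1.96 to 4.37 in HRT plantaris (median 3.81). In soleus the HI ranges were 1.53 to 3.24 (median 2.80) and 1.45 to 4.36 (median 3.66). The edgeR log2 fold change of LRT HI against HRT HI was 0.02 (SE 0.24, adjusted p = 0.98) in plantaris and -0.36 (SE 0.25, adjusted p = 0.38) in soleus. HI minus CTRL in mean log2(CPM + 0.5) was 1.39 in LRT and 0.371 in HRT plantaris, and 0.908 and -0.026 in soleus. Since Cfap69 was chosen for a low LRT CTRL level and is the member nearest the threshold, the greater LRT value is a description.

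HI was then compared with CTRL averaged over the lines. This average does not use the line difference itself, but it holds the CTRL levels that chose the genes. It is therefore read only as a description. This holds above all where the change was greater in the line whose low or high CTRL level chose the gene. The counts of calls are not read as a result about the members. Of the 25 members 16 spanned at least 8-fold between rats of 1 group, a spread that makes calls harder to reach. In plantaris 2 of the 25 genes were called higher and 1 lower with HI by edgeR, where 19.0% and 17.5% of all tested genes were. In soleus 2 were called higher, beside 14.4% of all genes, and 0 lower, beside 14.5%. The median log2 fold change of the members was -0.14 in plantaris and 0.19 in soleus, against 0.01 and 0.02 over all genes. No member fell in soleus at an unadjusted p under 0.05 either, and DESeq2 and limma-voom also called 0. All 4 genes that were called carry a symbol, as the source of the symbols favours.

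Cfap69 is counted among the calls in both muscles, with a log2 fold change averaged over the lines of 0.88 (SE 0.18) in plantaris and 0.49 (SE 0.18) in soleus by edgeR. As given above, HI minus CTRL lay mostly in LRT in plantaris and in LRT alone in soleus, the line whose low CTRL level chose the gene, so both values are a description. The soleus call was also lost with each muscle fitted alone and in 12 of the 24 fits that left out 1 rat. Pik3ap1 was lower with HI in plantaris by 1.67 on the log2 scale (SE 0.40, adjusted p = 8.8e-04 by edgeR). HI minus CTRL in mean log2(CPM + 0.5) was -1.66 in LRT and -1.49 in HRT. The slightly greater change was in LRT, whose high CTRL level chose the gene, so this average is a description too. Pik3ap1 in plantaris went from a median of 46.2 CPM in LRT CTRL to 17.5 in LRT HI, and from 26.3 in HRT CTRL to 4.80 in HRT HI, with overlapping ranges. In soleus its change of -0.51 (SE 0.38) was not called (adjusted p = 0.33 by edgeR).

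RT1-CE16, a class I gene of the rat major histocompatibility complex whose products present peptides to T cells, is counted among the plantaris calls, with a log2 fold change with HI averaged over the lines of 1.05 (SE 0.36) by edgeR. It was a low transcript in every group. In plantaris the levels were 0.08 to 0.720 CPM in LRT CTRL (median 0.350), 0.150 to 2.85 in LRT HI (median 1.38), whereas HRT rats had 0.240 to 3.14 in CTRL (median 1.54) and 1.71 to 5.85 with HI (median 2.15). HRT was the higher line in both treatments, with overlap, and the log2 fold change of LRT HI against HRT HI was -1.14 (SE 0.47, adjusted p = 0.18) in plantaris and -1.32 (SE 0.48, adjusted p = 0.066) in soleus by edgeR. The soleus difference was called with DESeq2 (-1.31, adjusted p = 0.049) and limma-voom (-1.56, adjusted p = 0.036), and by edgeR without HRT CTRL replicate 3 (-1.29, adjusted p = 0.043) or LRT HI replicate 3 (-1.59, adjusted p = 0.040). HI minus CTRL in mean log2(CPM + 0.5) was 0.934 in LRT and 0.687 in HRT plantaris, and mean CPM went from 0.373 to 1.32 in LRT and from 1.66 to 2.86 in HRT. The greater change was in LRT, whose low CTRL level chose the gene, so the average is a description, and the call was lost without HRT HI replicate 4 (adjusted p = 0.05) or LRT HI replicate 3 (adjusted p = 0.053). In soleus the change with HI was 0.69 (SE 0.38, adjusted p = 0.17).

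Hba-a3, an alpha chain gene of adult haemoglobin, was higher in LRT in CTRL by 1.23 in plantaris and 1.72 in soleus, and in HI the sign was turned, at -0.495 and -0.280. In HRT CTRL replicates 3 and 5 had 0 CPM in plantaris, and 0 and 0.03 in soleus, while the other 4 had 1.58 to 4.07 and 0.740 to 4.39. LRT CTRL rats had 2.03 to 8.26 CPM in plantaris and 2.67 to 9.83 in soleus. HRT HI replicate 5 stood apart with 28.8 CPM in plantaris and 104.9 in soleus, where the other 5 had 1.52 to 7.34 and 1.41 to 25.1. The edgeR log2 fold change of LRT HI against HRT HI was -1.21 (SE 0.83, adjusted p = 0.45) in plantaris and -1.24 (SE 0.80, adjusted p = 0.33) in soleus, and without that rat it was 0.03 and 0.14.

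The summed level of the 5 blood markers (Alas2, Hbb, Hba-a1, Hba-a2 and Slc4a1) was highest in the rat with the highest Hba-a3. In HI soleus the order of the rats of each line was the same in both measures except for HRT HI replicate 6 and LRT HI replicate 3, while in HI plantaris it differed. In HRT HI replicate 5 the sum was 3082.1 CPM in plantaris and 11078.3 in soleus, whereas the other 5 HRT HI rats had 248.9 to 474.6 and 254.1 to 1745.2. In soleus, HRT HI replicate 6 had the second sum of its group, 1745.2 CPM, with 7.06 CPM of Hba-a3, while replicate 2 had 1597.8 with 25.1. In LRT HI soleus replicate 3 had the highest sum, 1577.9 CPM, with 7.34 CPM of Hba-a3, while replicates 1 and 4 had 1494.5 and 1114.8 with 19.7 and 18.4. In LRT HI the sum was 208.8 to 502.8 CPM in plantaris and 484.7 to 1577.9 in soleus, and in LRT CTRL 241.8 to 935.4 and 209.5 to 958.0. None of the 5 markers was at 0, and the lowest value was 2.42 CPM, of Slc4a1. Of the HRT CTRL rats at or near 0 CPM of Hba-a3, replicate 3 had the highest blood marker sum of its group in both muscles, at 377.0 CPM in plantaris and 647.2 in soleus. Replicate 5 had the lowest of its group in plantaris, at 248.9, and 277.3 in soleus, under the group median of 311.2. Hba-a3 in soleus had a log2 fold change with HI of 1.91 averaged over the lines (SE 0.68, adjusted p = 0.031 by edgeR). HI minus CTRL was 0.684 in LRT and 2.69 in HRT, the line that was low in CTRL, so this average is a description, and the median blood sum in soleus went from 636.1 CPM without to 1025.9 with HI in LRT, and from 311.2 to 1237.2 in HRT. The part of blood in this difference was not tested. The call was lost without LRT CTRL replicate 3 or 6 or HRT CTRL replicate 4, at adjusted p values of 0.051, 0.077 and 0.06, and with soleus fitted alone (adjusted p = 0.17).

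**Figure D5:**
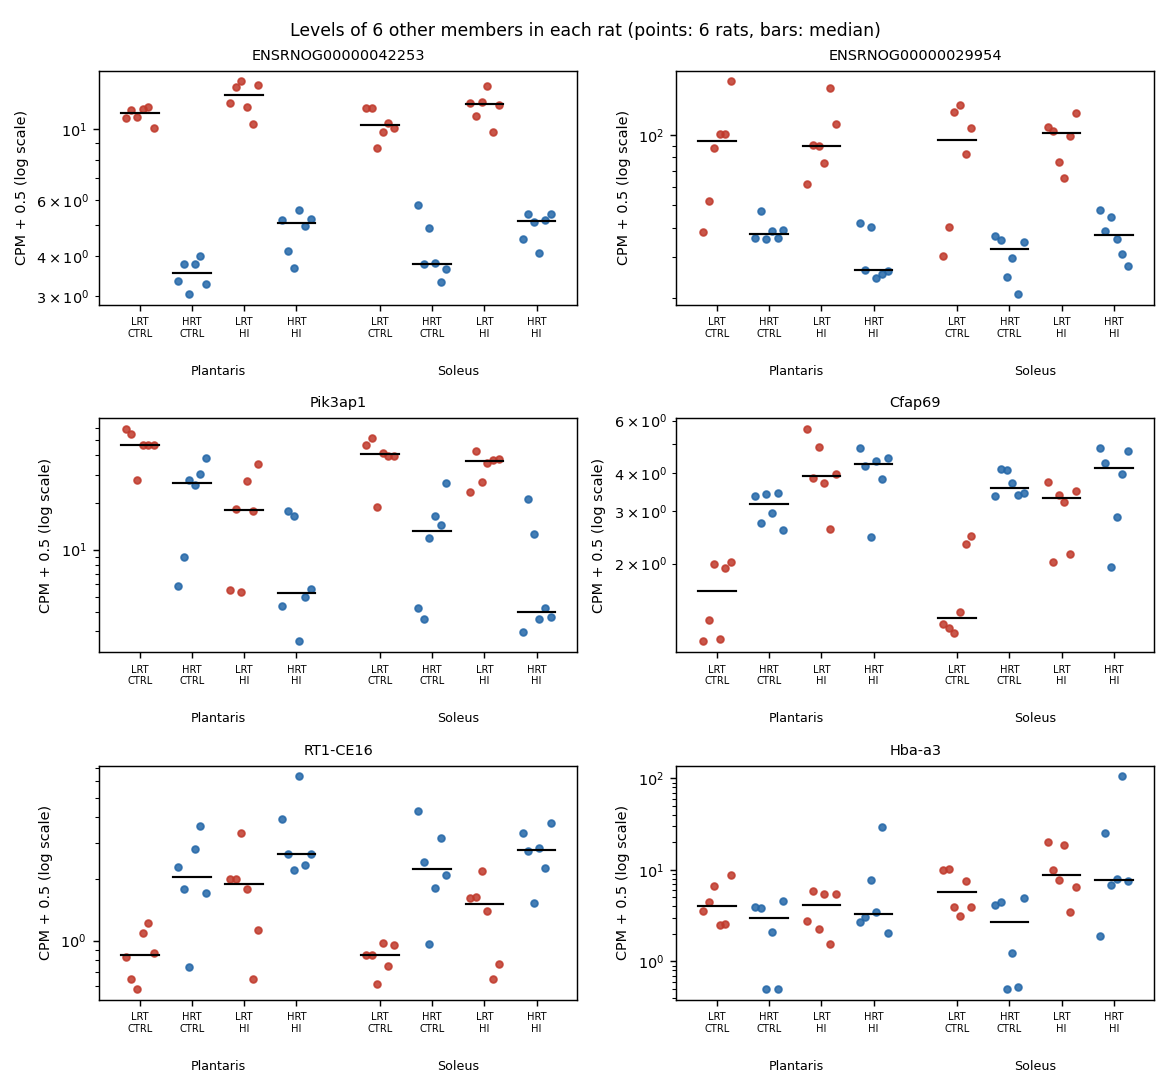
CPM + 0.5 on a log scale of 6 further members in each library, with LRT rats in red, HRT rats in blue and a bar at the median of each group of 6. ENSRNOG00000042253 separates the lines in all 4 comparisons, ENSRNOG00000029954 and Pik3ap1 separate them in HI soleus, and Cfap69 separates them in CTRL but not in HI.

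The members not described singly were ENSRNOG00000022932, ENSRNOG00000061438, ENSRNOG00000033529 and ENSRNOG00000033346, higher in LRT CTRL, and ENSRNOG00000003606, ENSRNOG00000004635 and ENSRNOG00000021292, higher in HRT CTRL. edgeR with all rats called none of them in LRT HI against HRT HI or for HI averaged over the lines. Other fits called ENSRNOG00000022932 in HI soleus (adjusted p = 0.044 with DESeq2, 0.039 with limma-voom, 0.019 with the replicate block) and ENSRNOG00000003606 there (0.018 with limma-voom). ENSRNOG00000004635 was put past the threshold as lower with HI in plantaris with each muscle alone and with the block, but HI minus CTRL was -1.43 in HRT, whose high CTRL level chose the gene, and 0.023 in LRT, so this is a description. ENSRNOG00000061438 had a line difference of -0.699 in plantaris and -1.38 in soleus in HI, opposite to CTRL in both muscles, as did ENSRNOG00000021292 at 0.207 and 0.486 and Hba-a3. ENSRNOG00000022932 kept its direction in HI soleus at a log2 fold change of 1.59 (SE 0.58, adjusted p = 0.063 by edgeR). ENSRNOG00000003606 had -1.48 (SE 0.77, adjusted p = 0.29) in plantaris and -1.61 (SE 0.70, adjusted p = 0.13) in soleus.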

How the data were processed

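Per the methods, the authors prepared libraries from total RNA, quantified transcripts with Salmon 0.9.1 against Ensembl cDNA and non-coding RNA of Rnor_6.0, and used tximport for sums per gene. The labels and the methods name different library kits, so strand was not settled. The deposited values are estimated counts per gene, not normalized between libraries, and 66.0% of them were not whole. They were rounded for the tests. Groups came from the labels. Within groups, 120 pairs of libraries had a chi-square per gene of 12 to 263, so none was counted as a duplicate.

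The members and the gene and marker lists were chosen with earlier results of these data known. The lists covered blood, muscle fibre, leukocyte, adipocyte, endothelium, fibroblast, Schwann cell and satellite cell markers, and 8 gene families. Named genes were the members with a symbol, up to 2 identifiers per direction with the greatest CTRL difference, and the genes nearest the thresholds. CPM used library totals. The test was edgeR 4.0.16 (R 4.3.3; filterByExpr, TMM, quasi-likelihood, 8 groups and RIN, all 48 libraries, 16960 genes) with Benjamini-Hochberg adjustment over all genes and a threshold of 0.05. The 2 muscles of a rat were treated as independent. P-values measure the spread between rats, except for the difference between the muscles, where the 2 libraries of a rat counted as separate. Counting limits cover counting error only.

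Tested on simulated data with 200 of 16788 genes changed, for LRT HI against HRT HI in plantaris, edgeR recovered 86% of 2-fold and 100% of 4-fold changes with 3.1% false calls. The simulated libraries were drawn independently, and genes with low counts were not among those changed. Rats at separate levels and the correlation between the muscles of a rat were not modelled. These shares therefore do not carry over to the members, and a member that was not called can still differ by 4-fold. Alternatives used DESeq2 1.42.0 size factors, library totals, the Wald test of DESeq2, limma-voom (limma 3.58.1), no RIN, genes with any count, each muscle alone, the replicate number as a block, an added fold threshold, each rat left out, and other settings of the selection rule. Symbols were read from the tables of the study, whose fold changes and p-values were not used, and neighbours from RefSeq (GRCr8). Tables and figures used Python 3.11.15, numpy 2.4.6, pandas 2.3.3 and matplotlib 3.10.9.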

Additional observations from a re-analysis of the deposited data

Results flagged for a closer look

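In groups of 6 rats, the highest or lowest value was called apart when its gap to the nearest other value exceeded Dixon's limit as a share of the group's range, and 12 of the 72 groups tested held such a value. Chance alone gives this in about 1 group in 20, but the count is a description and not to be read against that rate: 5 of the 12 values are in CTRL groups, whose levels chose the genes, and the 2 muscles of a rat are not independent. Hba-a3 was apart in HRT HI replicate 5, at 28.82 CPM in plantaris and 104.88 in soleus, the rat with the highest blood marker sums. LOC100362027 was apart in LRT CTRL replicate 5, at 30.62 CPM in plantaris and 32.11 in soleus, where the other 5 rats were at or near 0, and in soleus of HRT CTRL replicate 6, at 56.64 CPM. ENSRNOG00000028543 was apart in LRT HI replicate 4, at 13.13 CPM in plantaris and 15.84 in soleus. ENSRNOG00000038999 was apart in LRT HI replicate 3, at 56.76 CPM in plantaris and 57.81 in soleus, and in soleus of LRT CTRL replicate 3, at 8.37. ENSRNOG00000012067 was apart in soleus of HRT CTRL replicate 2, at 128.88 CPM, and ENSRNOG00000019050 in plantaris of HRT HI replicate 6, at 15.29.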

How the results depend on the processing

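Each rat was left out in turn, both muscles together. The genes called higher in LRT HI then numbered 2 to 2 in plantaris and 3 to 4 in soleus, and those higher in HRT HI 1 to 3 and 3 to 5. The genes that rose with HI numbered 1 to 3 in plantaris and 0 to 3 in soleus, those that fell 1 to 3 and 0 to 0, and a line difference between muscles was called for 0 to 0. Without 1 CTRL rat the rule gave 24 to 31 members, and 10 of the 25 were members in all 12 cases. ENSRNOG00000021292 was kept in 4 of 12, ENSRNOG00000033529 in 5, Cfap69 in 6 and ENSRNOG00000033346 in 7.

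In plantaris, limma-voom called 4 genes higher in HRT HI in place of 2. There, HI raised 4 members in place of 2 with library totals and with each muscle alone, and 1 with an absolute log2 fold change of at least 1. Of members that fell in plantaris there were 3 in place of 1 with the replicate block and 2 with each muscle alone. In soleus, limma-voom and the replicate block each called 5 genes higher in LRT HI in place of 3, and the added fold threshold left 3 genes higher in HRT HI in place of 5. HI raised 1 member in soleus in place of 2 with genes of any count, 0 with each muscle alone and 1 with the added fold threshold. The rule gave 43 members with a pseudocount of 0.1, 14 with a CPM floor of 5, 6 with a line difference of 1.5 and 3 with 2. The causes were not tested. For the HI line differences of named genes, 560 alternative values kept their direction and side of the threshold, 4 lost the call (ENSRNOG00000038999 in plantaris), 4 gained it (RT1-CE16 in soleus) and 8 changed sign.

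Line differences in HI that were not called changed sign for Hba-a3 without HRT HI replicate 5 (0.03 and 0.14, with ranges over single rats of -1.48 to 0.03 in plantaris and -1.53 to 0.14 in soleus) and for ENSRNOG00000028543 in soleus without LRT HI replicate 4 (-0.61, range to 1.89). They also did so for LOC100362027 in soleus without HRT HI replicate 1 or 2 (0.06 and 0.08, range from -0.14), and for Cfap69 in plantaris without HRT HI replicate 3, LRT HI replicate 1 or LRT HI replicate 3 (-0.1, -0.09 and -0.04). The same numbers are not read as pairing LRT with HRT rats. The mean r of same-numbered LRT and HRT libraries was between -0.02 and 0.08. Single pairs ran from -0.41 to 0.34 in HI plantaris and from -0.22 to 0.44 in HI soleus, and from -0.11 to 0.16 in CTRL. In each comparison 0 to 2 of 6 LRT libraries correlated best with their own number. Whether the numbers share a batch was not tested. With the block, LOC100362027 was also called for HI in both muscles. Leaving out HRT CTRL replicate 1 or 2 changed no call but that of ENSRNOG00000045654 in soleus. Depth limits the genes near 1 CPM.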

Other observations

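Genes that spanned at least 8-fold between the rats of a group in both muscles numbered 30 in CTRL and 43 in HI rats of LRT, and 31 and 33 in those of HRT, of the 13476 genes at or above the CPM floor, and the members held 9, 3, 6 and 4 of them.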
